A study of Mus musculus with 6 samples.

Results

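Pericytes of the mouse lung, as a marker rule finds them, were followed in 6 single-cell RNA libraries of wild-type (WT) and tumor necrosis factor–transgenic (TNF-Tg) mice, an inflammatory model of pulmonary hypertension. A barcode was taken when it held at least 500 genes and at most 10% mitochondrial UMIs (unique molecular identifiers, 1 per captured transcript) and at least 1 UMI of 3 or more of the 6 genes *Higd1b*, *Cox4i2*, *Kcnk3*, *Trpc6*, *Pdgfrb*, and *Lipg*. One of the detected genes had to be *Higd1b* or *Trpc6*. At most 2 of *Egfl7*, *Tie1*, *Cldn5*, *Cdh5*, and *Pecam1*, which are endothelial, and at most 2 of the vascular smooth muscle cell (VSMC) genes *Myh11*, *Cnn1*, and *Lmod1* were allowed. The rule found 379 barcodes among 38208 kept of 43545 in all, 249 in WT and 130 in TNF-Tg libraries. They are called marker-positive cells here and not pericytes, because genes outside the rule went against that name in 2 TNF-Tg libraries. The groups were TNF-Tg mice and littermate WT control mice of 8, 14, and 20 weeks, with 1 library for each genotype at each age. All mice were female, and the lungs of several animals were pooled for each library, after removal of CD45+ and CD326+ cells, which are leukocytes and epithelial cells. The promoter that drives the transgene is not given in the sources used here. The spread between the 3 libraries of a genotype holds age, pool, and run together.

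Pericytes are mural cells that share a basement membrane with the capillary endothelium and wrap its outer face. They are recruited by endothelial PDGF-B through the receptor PDGFR-β, send angiopoietin 1 back to the endothelial receptor TIE2, and depend on NOTCH3. They set capillary tone through vasoactive receptors and the nitric oxide and cyclic GMP pathway. In the lung they carry a hypoxia-type set of mitochondrial subunits, of which *Higd1b*, *Cox4i2*, and *Ndufa4l2* are used as markers, and reduced contact of pericytes with small vessels has been described in pulmonary hypertension.

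The marker-positive cells held a median of 4717, 4475, and 5136.5 UMIs in WT and of 11484, 18629, and 12617.5 UMIs in TNF-Tg libraries at 8, 14, and 20 weeks. The TNF-Tg libraries were also deeper as a whole, with medians of 9179 to 9808 against 4455 to 4766 UMIs per kept barcode, and a rule on detection is met more easily in a deeper barcode. Any pair of libraries shared 3 to 17 barcode sequences. The highest doublet scores, at a rate of 0.8% per 1000 barcodes, held 5 of the 249 WT and 5 of the 130 TNF-Tg marker-positive cells, 4 of the latter among the 20 of 20 weeks, and these were kept in the main analysis. The 12 immune markers summed to 11.3 to 18.8 CPM in WT and 24.8 to 45.8 CPM in TNF-Tg marker-positive cells, and *C1qa*, *Cd79a*, *Cd3e*, and *Nkg7* were at 0. The 10 endothelial markers outside the rule summed to 361 to 659 CPM in WT and 198 to 254 CPM in TNF-Tg. The 9 markers of Col13a1 fibroblasts summed to 922 to 1056 CPM in WT and 45.8 to 405 CPM in TNF-Tg, and the 9 of Col14a1 fibroblasts to 317 to 1482 CPM in WT and 379 to 847 CPM in TNF-Tg. The part of these cells in the results was not tested.

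The pericyte label was checked on genes outside the rule, and it held for the WT cells, while the TNF-Tg cells of 14 and 20 weeks went against it. A sum of 28 other pericyte genes, among them *Notch3*, *Gucy1a1*, *Postn*, *Ndufa4l2*, and *Vtn*, was compared per 10000 UMIs of a cell. Its median was 285, 271, and 277 in WT marker-positive cells at 8, 14, and 20 weeks. In TNF-Tg marker-positive cells it was 173, 67.0, and 75.8, while VSMC barcodes (all 3 of *Myh11*, *Cnn1*, and *Lmod1*) had medians of 37.7 to 46.9 in all 6 libraries. The 8-week TNF-Tg marker-positive cells lay between those of WT and the VSMC barcodes, and those of 14 and 20 weeks lay close to the VSMC barcodes. Of the TNF-Tg marker-positive cells, 44 of 50, 23 of 60, and 9 of 20 reached the 5th percentile of the WT marker-positive cells (78.8), and 11, 2, and 0 reached the WT median. The sum of 15 contractile genes, none of them used in the rule, moved the other way, from medians of 66.3, 49.8, and 49.7 in WT to 132, 189, and 268 in TNF-Tg marker-positive cells. VSMC barcodes lay at 378 to 518. Over 3794 genes outside the rules, the summed TNF-Tg marker-positive cells of 14 and 20 weeks differed by a median of 0.52 and 0.56 log2 units (10 CPM added; CPM is UMIs of a gene per 1e+06 UMIs) from WT marker-positive cells and by 0.28 and 0.33 from the VSMC barcodes of their own libraries. At 8 weeks both distances were alike, at 0.37 and 0.38. From WT VSMC barcodes, the TNF-Tg marker-positive cells of 8, 14, and 20 weeks lay 0.43, 0.40, and 0.39 away. By that measure those of 8 weeks were nearer to WT marker-positive cells, and those of 14 and 20 weeks nearer to WT VSMC barcodes. In WT libraries the marker-positive cells lay 0.19 to 0.22 from those of the other WT libraries and 0.51 to 0.58 from VSMC barcodes. Counts by gene list and tested log2 fold changes are given with the TNF-Tg libraries of 14 and 20 weeks and, as the value at 8 weeks alone, without them.

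**Figure D1:**
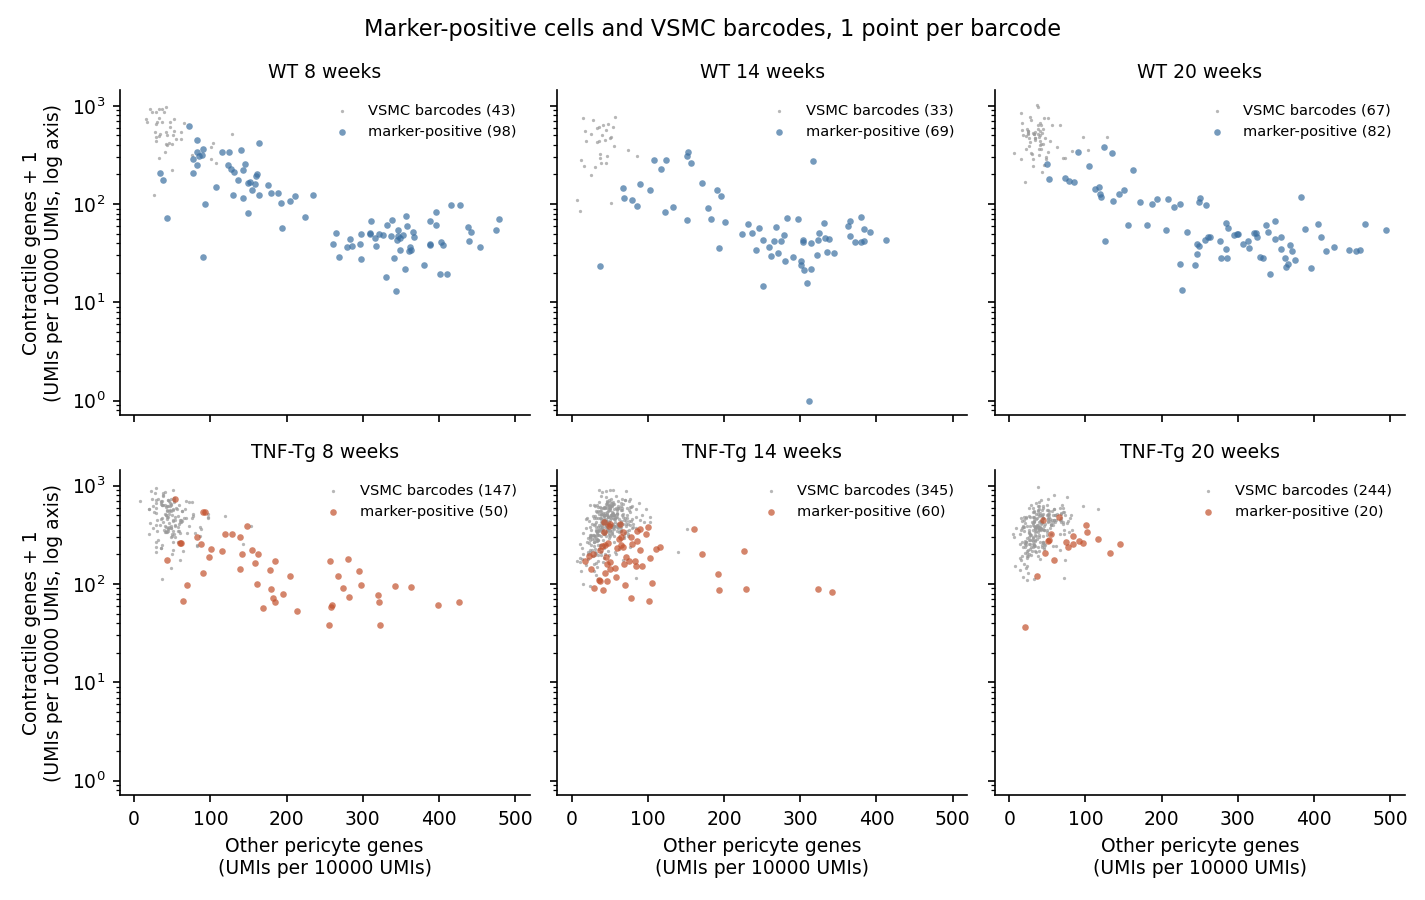
Each point is 1 barcode, placed by its UMIs of 28 other pericyte genes (x axis, per 10000 UMIs) and of 15 contractile genes plus 1 (y axis, log scale, per 10000 UMIs), with 1 panel per library, colored points for marker-positive cells and gray points for VSMC barcodes. WT marker-positive cells and the 50 TNF-Tg marker-positive cells of 8 weeks reach far to the right of the VSMC barcodes, whereas most of the 60 and 20 TNF-Tg marker-positive cells of 14 and 20 weeks lie among or beside them.

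Marker-positive cells were a smaller share of TNF-Tg than of WT libraries by every denominator. There were 98, 69, and 82 marker-positive cells in WT and 50, 60, and 20 in TNF-Tg libraries at 8, 14, and 20 weeks. Of all kept barcodes they made up 1.52, 1.14, and 1.18% in WT and 0.757, 1.03, and 0.315% in TNF-Tg. The highest TNF-Tg share, at 14 weeks, was just under the lowest WT share. The means were 1.28% ± 0.212 in WT and 0.701% ± 0.361 in TNF-Tg (mean ± SD, n = 3 libraries each; exact permutation test over libraries, two-sided, p = 0.1). A p of 0.1 is the smallest that 3 against 3 libraries can give. Of mesenchymal barcodes (3 or more of 10 matrix and contractile genes, few endothelial genes), marker-positive cells were 10.9, 11.1, and 11.9% in WT and 9.82, 6.27, and 1.49% in TNF-Tg. The TNF-Tg share was close to WT at 8 weeks and lower at each later age. The means were 11.3% ± 0.507 in WT and 5.86% ± 4.18 in TNF-Tg (mean ± SD, n = 3 libraries each; exact permutation test over libraries, two-sided, p = 0.1). Of mural barcodes, which are marker-positive cells plus VSMC barcodes, they were 69.5, 67.6, and 55% in WT and 25.4, 14.8, and 7.58% in TNF-Tg, with 43, 33, and 67 VSMC barcodes in WT and 147, 345, and 244 in TNF-Tg. The means were 64.1% ± 7.87 in WT and 15.9% ± 8.95 in TNF-Tg (mean ± SD, n = 3 libraries each; exact permutation test over libraries, two-sided, p = 0.1). Marker-positive cells were the larger part of the mural barcodes in each WT library and the smaller part in each TNF-Tg library. The TNF-Tg share of mural barcodes at 20 weeks had a 95% exact binomial interval of 4.69% to 11.5%, which covers counting error only. With no VSMC gene allowed, the shares of kept barcodes were 0.389, 0.364, and 0.215% in WT and 0.0151, 0.0344, and 0.0158% in TNF-Tg, with the same direction.

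With every barcode thinned to 2000 UMIs, the difference was larger. Then 87, 60, and 76 marker-positive cells remained in WT and 35, 17, and 5 in TNF-Tg libraries, which is 1.49, 1.06, and 1.16% and 0.54, 0.306, and 0.0802% of kept barcodes. The barcodes left out for holding fewer UMIs numbered 591, 391, and 382 in WT and 124, 262, and 112 in TNF-Tg, and 7 of them were WT marker-positive cells. The means were 1.24% ± 0.226 in WT and 0.309% ± 0.23 in TNF-Tg (mean ± SD, n = 3 libraries each; exact permutation test over libraries, two-sided, p = 0.1). At equal depth the highest TNF-Tg share was that of 8 weeks, and it lay below each WT share.

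**Figure D2:**
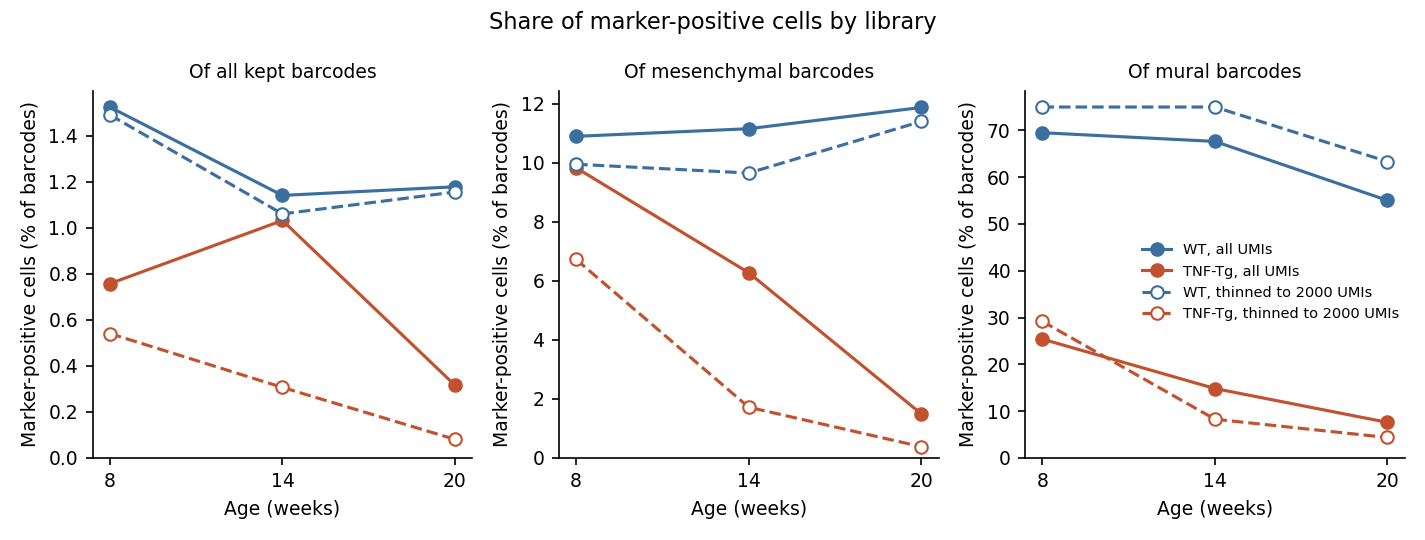
Share of marker-positive cells (y axis, % of barcodes, from 0) by age in weeks (x axis) among all kept, mesenchymal, and mural barcodes, with 1 point per library, blue for WT, red for TNF-Tg, filled points and solid lines for all UMIs, and open points and dashed lines for barcodes thinned to 2000 UMIs. Every TNF-Tg point lies below every WT point of its kind in each panel, and thinning moves the TNF-Tg share of kept barcodes at 14 weeks from 1.03% to 0.306%.

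Cells just inside and just outside the rule differed between the genotypes. Cells with exactly 3 of the 6 genes were 3, 3, and 6 in WT and 7, 26, and 10 in TNF-Tg libraries, and cells with all 6 were 58, 43, and 53 in WT and 17, 1, and 1 in TNF-Tg. The summed 28 other pericyte genes in WT cells with 3, 4, 5, and 6 rule genes were at 6900.4, 9540.1, 19319.8, and 27581 CPM at 8 weeks. They were at 15625, 14398, 24585, and 25440.00 CPM at 14 weeks and 13693, 15006, 20200.5, and 29404 CPM at 20 weeks. Cells with 6 genes held the most in each WT library, with no steady order at 14 weeks. In TNF-Tg cells the values were 8330.2, 13054, 19752, and 24476 CPM at 8 weeks, 7004, 6286, 17279, and 8349 CPM at 14 weeks, and 5527, 8208, 9631, and 11686 CPM at 20 weeks, where the cells with 6 genes at 14 and 20 weeks and with 5 genes at 20 weeks were 1 each. Cells admitted through *Trpc6* without *Higd1b* were 6, 3, and 2 in WT and 6, 29, and 8 in TNF-Tg. Barcodes that met the pericyte part but were left out for holding all 3 VSMC genes were 5, 1, and 4 in WT and 15, 84, and 40 in TNF-Tg. With 4 or more of the 6 genes there were 43, 34, and 10 TNF-Tg marker-positive cells, and with *Higd1b* required 44, 31, and 12.

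The genes that led in WT marker-positive cells beyond the 6 rule genes are given as a description because the cells were picked by markers. The gene with the largest ratio over all other kept WT barcodes was *Spp1*, the secreted phosphoprotein osteopontin, with a mean of 4571 CPM against 17.9 CPM. It ranged from 2243 to 7964 CPM between the 3 WT libraries, and WT VSMC barcodes held 1.5 CPM. *Vtn*, which encodes the matrix protein vitronectin, had the next largest, with 505 CPM against 1.85 CPM. *Adcy8*, an adenylyl cyclase, had 245 CPM against 1.18 CPM. The soluble guanylyl cyclase subunits, which sense nitric oxide, were among the most abundant of the 25 leading genes: *Gucy1a1* had 3580.1 CPM against 43.1 CPM and *Gucy1b1* 2035 CPM against 26.1 CPM. The matrix gene *Postn* had 3117 CPM against 31.4 CPM, *Notch3* 1032 CPM against 12.1 CPM, and the angiotensin II receptor gene *Agtr1a* 185 CPM against 1.46 CPM. VSMC barcodes of the same WT libraries shared some of these genes. *Notch3* was 2.61 times and *Gucy1b1* 6.67 times as high in marker-positive cells as in VSMC barcodes, whereas *Gap43* had 418 CPM in marker-positive cells and 0 CPM in VSMC barcodes. In the other direction, *Timp4* had 252 CPM in WT VSMC barcodes and 0 CPM in WT marker-positive cells, and *Actc1*, cardiac α-actin, had 1462 and 6.9 CPM.

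Which genes differed between TNF-Tg and WT marker-positive cells was tested on UMIs summed over the marker-positive cells of each library (edgeR quasi-likelihood test, Benjamini-Hochberg adjustment over all genes tested, threshold 0.05). Of 6508 genes tested, 626 were higher (9.62%) and 477 lower (7.33%) in TNF-Tg, with a median log2 fold change of -0.004. All log2 fold changes below are TNF-Tg relative to WT. The TNF-Tg library of 8 weeks alone against the 3 WT libraries, which was chosen after seeing the data and takes its spread from WT, gave 465 higher (5.97%) and 379 lower (4.87%) of 7788 genes. It shares the WT libraries and its own TNF-Tg library with the full comparison, and its values are given beside those of the full comparison as the value at 8 weeks alone, not as separate support. With 1 library left out the calls ranged from 47, without the WT library of 20 weeks, to 2255, without the TNF-Tg library of 8 weeks. No gene of the lists below that was called changed direction when 1 library was left out, but most lost the threshold without the WT library of 20 weeks. Over all fits with 1 library left out, the adjusted p of these genes reached up to 0.162.

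**Figure D3:**
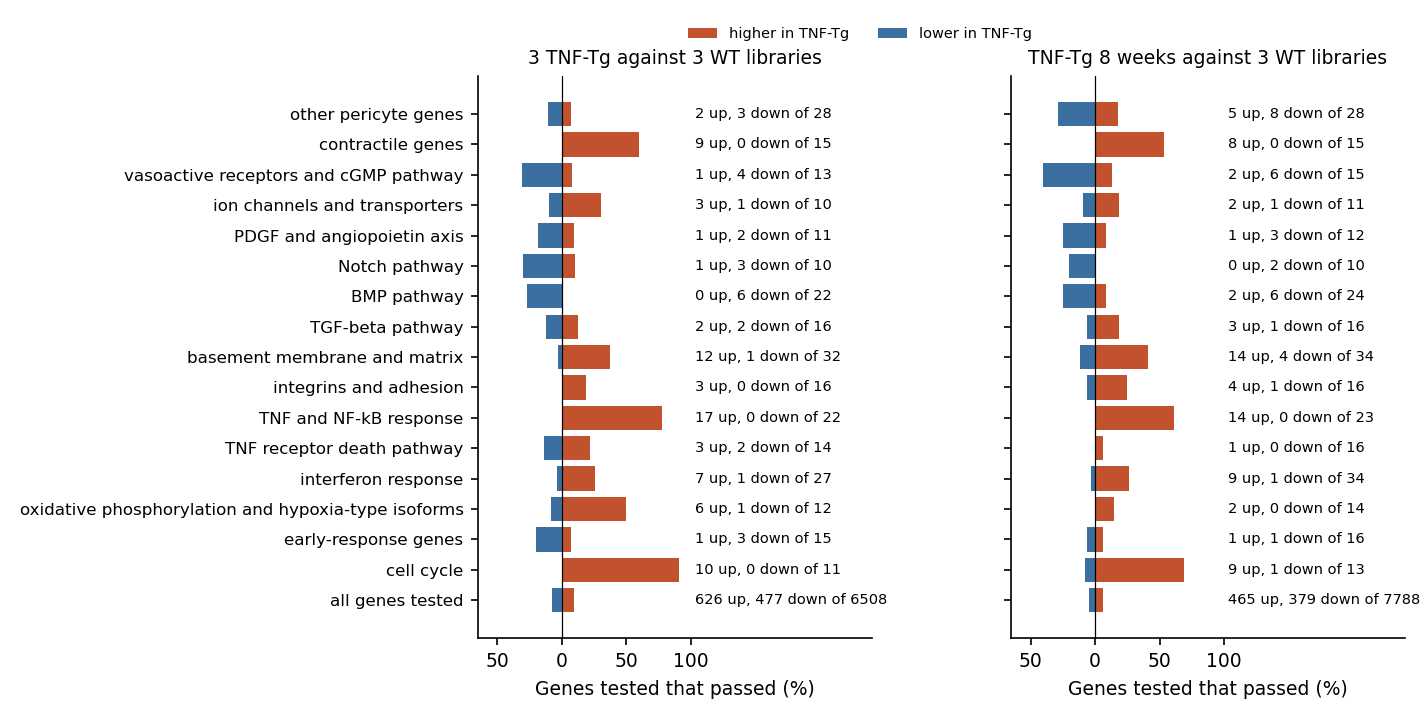
Percent of the tested genes of each list that passed the edgeR test at an adjusted p of 0.05 (x axis; red bars to the right, higher in TNF-Tg marker-positive cells, blue bars to the left, lower), with the counts beside each bar, for all 6 libraries and for the TNF-Tg library of 8 weeks against the 3 WT libraries. The TNF and NF-κB list has 17 genes up and 0 down of 22 in the first panel, and the BMP list 0 up and 6 down of 22, against 9.62% up and 7.33% down of all genes.

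The rule genes were lower at 14 and 20 weeks than at 8 weeks in TNF-Tg marker-positive cells, which is a description since they chose the cells. *Higd1b*, a mitochondrial respiratory chain assembly factor, was at 1251, 1428, and 1435 CPM in WT against 1247, 224, and 85 CPM in TNF-Tg cells, in the order 8, 14, and 20 weeks. *Cox4i2*, the hypoxia-type subunit of cytochrome c oxidase, was at 2882, 3372, and 3205 CPM in WT against 2112, 266, and 271 CPM in TNF-Tg cells. Both were nearer to WT at 8 weeks and far below it at 14 and 20 weeks. *Lipg*, which encodes endothelial lipase, was already low at 8 weeks, at 954, 1291, and 981 CPM in WT against 136, 0.776, and 19.6 CPM in TNF-Tg cells, and was found in 82.7, 88.4, and 80.5% of WT and 40, 1.67, and 10% of TNF-Tg marker-positive cells. Those shares were 70.8, 80, and 61.7% and 10, 0, and 5% when the cells picked at full depth were thinned to 2000 UMIs. Endothelial barcodes (4 or more of the 5 endothelial genes), thinned likewise, were at 0.688, 0.536, and 0.21% and 0.034, 0, and 0.0504%. *Pdgfrb*, the receptor that recruits pericytes, was at 1642, 1485, and 1448 CPM in WT against 1141, 488, and 513 CPM in TNF-Tg cells.

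Among the 28 other pericyte genes, all of which were tested, 3 fell (*Notch3*, *Gucy1b1*, and *Tbx2*), 2 rose (*Rgs5* and *Itga7*), and 23 did not pass, with a median log2 fold change of -0.68 against -0.004 for all genes. Both counts are shares near those of all genes, 7.33% lower and 9.62% higher, so the number of calls does not set this list apart. *Notch3*, the Notch receptor of mural cells, was at 1062, 1044, and 989 CPM in WT against 656, 542, and 448 CPM in TNF-Tg cells (log2 fold change -0.82 ± 0.18 (SE), adjusted p = 0.0194, and -0.61 at 8 weeks alone, adjusted p = 0.0811). The groups did not overlap, and the lowest WT value was above the highest TNF-Tg value. *Gucy1b1* was at 1867, 2007, and 2232 CPM in WT against 1018, 228, and 203 CPM in TNF-Tg cells (log2 fold change -2.005 ± 0.54 (SE), adjusted p = 0.0386, and -0.95 at 8 weeks alone, adjusted p = 0.00414), with the TNF-Tg library of 8 weeks between WT and those of 14 and 20 weeks. *Tbx2*, a T-box transcription factor, was at 786, 785, and 738 CPM in WT against 459.7, 100.2, and 128 CPM in TNF-Tg cells (log2 fold change -1.67 ± 0.49 (SE), adjusted p = 0.0497, and -0.70 at 8 weeks alone, adjusted p = 0.0394). *Gucy1a1*, *Pde5a*, the cyclic GMP phosphodiesterase, and *Vtn* were lower in every TNF-Tg library but did not pass the adjusted threshold (log2 fold changes -1.82, -2.08, and -2.02, adjusted p = 0.0572, 0.107, and 0.0665). At 8 weeks alone, 8 of the 28 fell and 5 rose, and *Gucy1a1*, *Pde5a*, and *Vtn* were among the fallen (log2 fold changes -0.75, -0.76, and -0.82). None of the 5 calls of the full comparison held without the WT library of 20 weeks (adjusted p up to 0.137).

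Receptors that set vessel tone and genes of the cyclic GMP pathway were examined next. Of 20 listed genes, 13 could be tested, 4 fell, and 1, *Rgs5*, rose, with a median of -1.04, and 6 fell and 2 rose of 15 at 8 weeks alone. *Agtr1a*, the angiotensin II receptor, was at 174, 172, and 209.5 CPM in WT against 51.4, 10.1, and 6.54 CPM in TNF-Tg cells (log2 fold change -2.91 ± 0.54 (SE), adjusted p = 0.0125, and -1.80 at 8 weeks alone, adjusted p = 1.45e-05). The WT libraries lay within a narrow band and the TNF-Tg value was lower at each later age. *Npr3*, the natriuretic peptide clearance receptor, was at 52.9, 90.6, and 93.3 CPM in WT against 28.1, 2.33, and 3.27 CPM in TNF-Tg cells (log2 fold change -2.76 ± 0.68 (SE), adjusted p = 0.0288, and -1.41 at 8 weeks alone, adjusted p = 0.0139). *Prkg1*, the cyclic GMP–dependent kinase, was at 198, 306, and 241 CPM in WT against 122, 66.8, and 68.7 CPM in TNF-Tg cells (log2 fold change -1.43 ± 0.27 (SE), adjusted p = 0.0132, and -0.96 at 8 weeks alone, adjusted p = 0.00904). VSMC barcodes held little *Agtr1a*, 7.28, 0, and 8.04 CPM in WT against 1.43, 1.07, and 0.819 CPM in TNF-Tg. Among 16 ion channel and transporter genes, 10 were tested, 1 fell, and 3 rose, and at 8 weeks alone 1 fell and 2 rose of 11. The calcium channel gene *Cacna1d* was at 54.8, 100.02, and 51.9 CPM in WT against 23.4, 2.33, and 0 CPM in TNF-Tg cells (log2 fold change -2.86 ± 0.73 (SE), adjusted p = 0.0323, and -1.44 at 8 weeks alone, adjusted p = 0.0194). Among those that rose were *Kcnmb1*, a subunit of the calcium-activated potassium channel, and *Ano1*, a calcium-activated chloride channel (log2 fold changes 1.69 and 2.49, and 1.25 and 0.89 at 8 weeks alone, where *Ano1* did not pass), and WT VSMC barcodes held more of both than WT marker-positive cells did. None of the 9 calls in these 2 lists held without the WT library of 20 weeks (adjusted p up to 0.136).

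**Figure D4:**
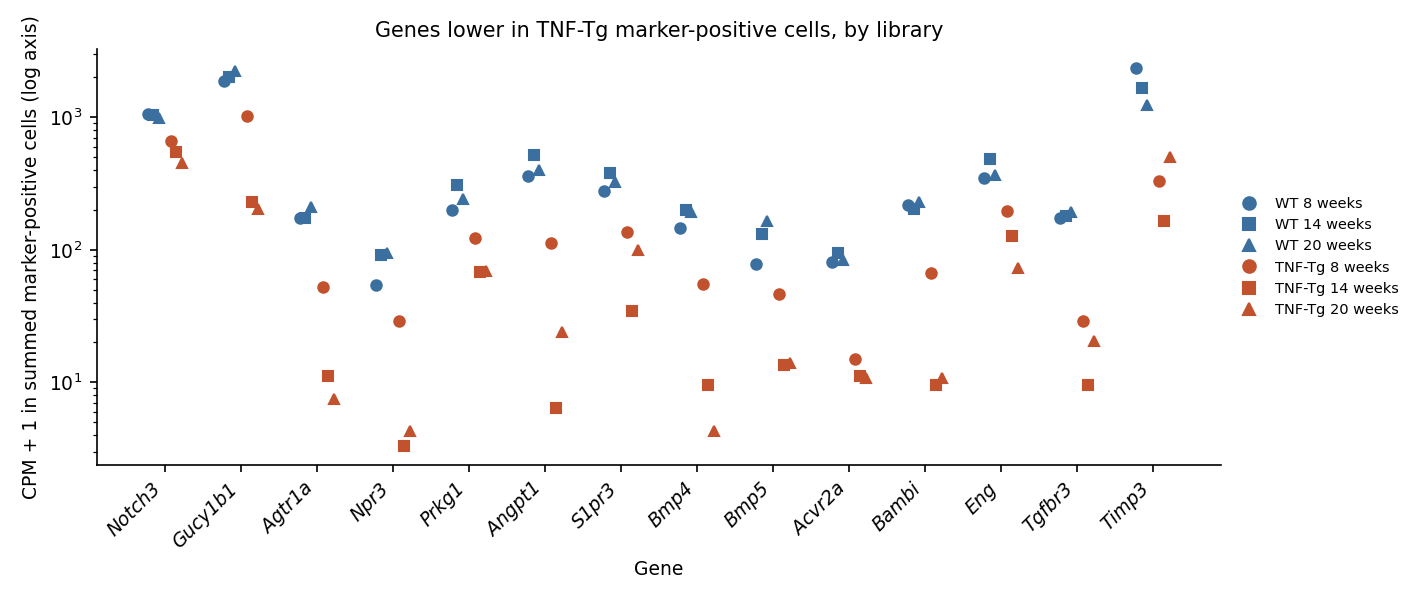
Levels of 14 genes (x axis) in the summed marker-positive cells of each library, as CPM + 1 on a log axis, blue for WT and red for TNF-Tg, with circles, squares, and triangles for 8, 14, and 20 weeks. All 14 genes are lower in each TNF-Tg library than in any WT library, and for *Angpt1*, *Bmp4*, *Bambi*, and *Npr3* the TNF-Tg values of 14 and 20 weeks lie well below that of 8 weeks.

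Genes for signals between pericytes and endothelium were taken next. Of 18 genes of the PDGF and angiopoietin axis, 11 were tested, 2 fell, 1 rose, and 8 did not pass, with a median of 0.10, and the single rise is a share near the 9.62% of all genes. Of 12 tested at 8 weeks alone, 3 fell and 1 rose. *Angpt1*, the pericyte ligand of TIE2, was at 361, 519, and 400.4 CPM in WT against 111, 5.43, and 22.9 CPM in TNF-Tg cells (log2 fold change -3.15 ± 0.78 (SE), adjusted p = 0.0291, and -1.88 at 8 weeks alone, adjusted p = 4.94e-07). The lowest TNF-Tg value was that of 14 weeks. *S1pr3*, a sphingosine 1-phosphate receptor, was at 278, 378, and 326 CPM in WT against 136, 33.4, and 98.1 CPM in TNF-Tg cells (log2 fold change -1.83 ± 0.43 (SE), adjusted p = 0.0255, and -1.21 at 8 weeks alone, adjusted p = 0.000461). *Pdgfb*, the ligand that endothelial cells use to recruit pericytes, was low in WT marker-positive cells and higher in TNF-Tg, at 3.78, 28.1, and 6.22 CPM in WT against 71.7, 294, and 131 CPM in TNF-Tg cells (log2 fold change 4.03 ± 0.75 (SE), adjusted p = 0.0125, and 2.75 at 8 weeks alone, adjusted p = 7.38e-05). VSMC barcodes showed *Pdgfb* too, at 7.28, 9.44, and 5.36 CPM in WT against 42.3, 115, and 68.8 CPM in TNF-Tg. *Vegfa* was low in both genotypes, at 30.2, 25, and 14.5 CPM in WT against 6.23, 26.4, and 26.2 CPM in TNF-Tg cells (adjusted p = 0.888). Of 14 Notch pathway genes, 10 were tested, and *Notch1*, *Notch3*, and the coactivator *Maml2* fell while the ligand *Jag1* rose, and 2 of 10 fell at 8 weeks alone. *Notch1* was at 170.1, 250.04, and 214 CPM in WT against 128, 57.5, and 58.9 CPM in TNF-Tg cells (log2 fold change -1.28 ± 0.31 (SE), adjusted p = 0.0283, and -0.66 at 8 weeks alone, adjusted p = 0.0896), and *Jag1* was at 39.7, 21.9, and 49.8 CPM in WT against 59.2, 98.6, and 101 CPM in TNF-Tg cells (log2 fold change 1.26 ± 0.34 (SE), adjusted p = 0.0386, and 0.66 at 8 weeks alone, adjusted p = 0.283). Without the WT library of 20 weeks none of the 7 calls of both lists held (adjusted p up to 0.134).

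Bone morphogenetic protein (BMP) signaling, whose receptor BMPR2 is the main gene of heritable pulmonary arterial hypertension, was examined at each step. Of 36 BMP pathway genes, 22 were tested, 6 fell, and 0 rose (edgeR; 1 rose at an unadjusted p under 0.05, and DESeq2 gave 5 falls and 0 rises), with a median of -0.65. The ligand *Bmp4* was at 146, 200.03, and 191 CPM in WT against 54.5, 8.54, and 3.27 CPM in TNF-Tg cells (log2 fold change -2.88 ± 0.63 (SE), adjusted p = 0.0201, and -1.65 at 8 weeks alone, adjusted p = 7.87e-05). A second ligand, *Bmp5*, was at 77.5, 131, and 164 CPM in WT against 45.2, 12.4, and 13.1 CPM in TNF-Tg cells (log2 fold change -2.30 ± 0.48 (SE), adjusted p = 0.0177, and -1.39 at 8 weeks alone, adjusted p = 0.00608). WT VSMC barcodes held less of both, 2.43, 15.7, and 10.7 CPM of *Bmp4* and 24.3, 18.9, and 32.2 CPM of *Bmp5*. Among receptors, *Acvr2a*, a type II receptor, was at 79.4, 93.8, and 83 CPM in WT against 14, 10.1, and 9.81 CPM in TNF-Tg cells (log2 fold change -2.80 ± 0.26 (SE), adjusted p = 0.00147, and -2.52 at 8 weeks alone, adjusted p = 3.58e-05). The coreceptor *Eng* was at 346, 488, and 367 CPM in WT against 196, 126, and 71.9 CPM in TNF-Tg cells (log2 fold change -1.49 ± 0.31 (SE), adjusted p = 0.0167, and -0.96 at 8 weeks alone, adjusted p = 0.00473). Each of these was lower in all 3 TNF-Tg libraries than in any WT library. *Bmpr2* was at 174, 166, and 201 CPM in WT against 137, 115, and 68.7 CPM in TNF-Tg cells, lower in each TNF-Tg library but not past the threshold (log2 fold change -0.64 ± 0.23 (SE), adjusted p = 0.0911, and -0.35 at 8 weeks alone, adjusted p = 0.433), and *Bmpr1a* overlapped between the groups (adjusted p = 0.362). *Smad5*, a signal transducer, was at 73.7, 87.5, and 72.6 CPM in WT against 37.4, 35.7, and 22.9 CPM in TNF-Tg cells (log2 fold change -1.12 ± 0.23 (SE), adjusted p = 0.0173, and -0.99 at 8 weeks alone, adjusted p = 0.0721). *Bambi*, a decoy receptor that dampens the pathway, was at 217, 203, and 228 CPM in WT against 65.5, 8.54, and 9.81 CPM in TNF-Tg cells (log2 fold change -2.87 ± 0.61 (SE), adjusted p = 0.0182, and -1.68 at 8 weeks alone, adjusted p = 1.3e-05). The target gene *Id2* was at 155, 87.5, and 116 CPM in WT against 109, 17.9, and 62.1 CPM in TNF-Tg cells, with overlapping groups (adjusted p = 0.269), and the ligand *Bmp2* was at 49.1, 46.9, and 56 CPM in WT against 68.6, 45.8, and 29.4 CPM in TNF-Tg cells (adjusted p = 0.937). Of the 6 calls, *Acvr2a* held with each library left out, and the others reached adjusted p of up to 0.0962. At 8 weeks alone, 6 BMP genes fell and 2 rose of 24 tested.

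In the related transforming growth factor β (TGF-β) pathway 16 of 20 genes were tested, 2 rose, and 2 fell, and at 8 weeks alone 3 rose and 1 fell of 16. The ligand *Tgfb1* was at 35.9, 15.6, and 31.1 CPM in WT against 63.9, 206, and 232 CPM in TNF-Tg cells (log2 fold change 2.64 ± 0.53 (SE), adjusted p = 0.0161, and 1.18 at 8 weeks alone, adjusted p = 0.0294). The TNF-Tg value was higher at each later age. The coreceptor *Tgfbr3* was at 174, 178, and 193 CPM in WT against 28.1, 8.54, and 19.6 CPM in TNF-Tg cells (log2 fold change -3.30 ± 0.37 (SE), adjusted p = 0.00317, and -2.64 at 8 weeks alone, adjusted p = 5.84e-08), and *Ltbp3*, which stores latent TGF-β in the matrix, had a log2 fold change of -0.98 ± 0.28 (adjusted p = 0.045, and -0.98 at 8 weeks alone). *Tgfbr3* passed with each library left out, and the other 3 did not without the WT library of 20 weeks (adjusted p up to 0.159).

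By size of change, 12 genes were named among those lower in TNF-Tg at every age with at least 50 CPM in WT. The largest was *Inmt*, an amine methyltransferase and one of the 9 Col13a1 fibroblast markers, at 132, 125, and 124 CPM in WT against 0, 1.55, and 0 CPM in TNF-Tg cells, where 170 UMIs in WT and 2 in TNF-Tg gave a ratio of 143 (95% exact interval 38.9 to 1188) for WT over TNF-Tg, which covers counting error only. *Clec3b*, a Col14a1 fibroblast marker, was at 209.8, 25, and 60.2 CPM in WT against 0, 3.88, and 0 CPM in TNF-Tg cells, with most of its WT signal in 1 library. The sum of the Col13a1 fibroblast list was lower in each TNF-Tg library too, and that of the Col14a1 list overlapped between the groups. Of 7 genes tested in the Col14a1 list, 1 fell, *Clec3b*, and 1 rose, *Col14a1* itself. *Spp1*, the leading gene of WT marker-positive cells, was at 2243, 7964, and 3506 CPM in WT against 21.8, 1.55, and 317 CPM in TNF-Tg cells (log2 fold change -5.35 ± 1.41 (SE), adjusted p = 0.0356, and -7.64 at 8 weeks alone, adjusted p = 1.43e-15). VSMC barcodes of the TNF-Tg libraries held 0, 0.178, and 239 CPM. The others were *Abca8b*, a lipid transporter, *Edn3*, an endothelin ligand, *Rgcc*, a regulator of the cell cycle, *Pcolce2*, a procollagen enhancer, *Wnt4*, *Adcy8*, *Reck*, an inhibitor of matrix metalloproteinases, the potassium channel gene *Kcnq5*, and *Galnt15*. *Edn3* was at 77.5, 116, and 89.2 CPM in WT against 10.9, 0, and 0 CPM in TNF-Tg cells (log2 fold change -4.66 ± 0.74 (SE), adjusted p = 0.00807, and -3.005 at 8 weeks alone, adjusted p = 4.27e-06). *Wnt4* was at 308, 366, and 371 CPM in WT against 67, 2.33, and 3.27 CPM in TNF-Tg cells (log2 fold change -3.76 ± 0.84 (SE), adjusted p = 0.022, and -2.32 at 8 weeks alone, adjusted p = 1.01e-08). *Reck* was at 372, 456, and 348 CPM in WT against 62.3, 12.4, and 22.9 CPM in TNF-Tg cells (log2 fold change -3.54 ± 0.48 (SE), adjusted p = 0.00564, and -2.59 at 8 weeks alone, adjusted p = 1.06e-09). When single libraries were dropped, *Inmt*, *Pcolce2*, and *Galnt15* kept their call, and the others reached adjusted p of up to 0.125.

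Genes of the TNF and NF-κB response rose in TNF-Tg marker-positive cells. Of 34 genes, 22 were tested, 17 rose, and 0 fell (edgeR; 0 also at an unadjusted p under 0.05 and by DESeq2), with a median of 2.54. Among them *Ccl2*, *Ccl7*, and *Cxcl10* had 0 UMIs in WT, so they passed the low-count filter only through TNF-Tg and could not be called lower. Of 23 tested at 8 weeks alone, 14 rose. The sum of the 34 genes rose in VSMC barcodes as well, where no WT library exceeded 878 CPM. TNF-Tg VSMC barcodes reached 2412 CPM at 8 weeks, 3488 CPM at 14 weeks, and 4779 CPM at 20 weeks. Marker-positive cells of those TNF-Tg libraries held more at each age (5486, 4700, and 5209 CPM). *Ccl2*, the monocyte chemoattractant, had 0 UMIs in the 249 WT marker-positive cells and 2684, 1679, and 1243 CPM in TNF-Tg marker-positive cells of 8, 14, and 20 weeks. Against a floor of 3 UMIs over the WT marker-positive cells, it was at least 847-fold higher, the largest such bound among the named genes. The TNF-Tg level was highest at 8 weeks. The cells with *Higd1b* held 2819.8, 685, and 1271 CPM of *Ccl2*, and those admitted by *Trpc6* alone 1670.00, 2536, and 1216 CPM. At 14 weeks the level was higher in the cells without *Higd1b*, and cells with 3, 4, 5, and 6 rule genes held 2355, 1542, 747, and 289.6 CPM. Of TNF-Tg marker-positive cells 82, 76.7, and 55% held a *Ccl2* UMI, and 70, 48.3, and 30% when these same cells were thinned to 2000 UMIs. In endothelial barcodes of the same libraries the thinned shares were 0.866, 2.35, and 3.22% and in VSMC barcodes 13.9, 22.6, and 22.6%. *Cxcl10*, a chemokine for T cells, was at 0 in WT and reached 432, 250.00, and 288 CPM in TNF-Tg marker-positive cells, at least 136-fold higher, against 33.8, 13, and 29.2 CPM in VSMC barcodes. *Ccl7*, a further monocyte chemokine, was at 0 in WT against 217, 54.3, and 91.6 CPM in TNF-Tg, at least 47-fold higher.

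The feedback inhibitor genes *Nfkbia*, *Nfkbie*, and *Tnfaip3* were raised at all 3 ages, and the subunit genes *Nfkb2* and *Relb* rose. The subunit genes *Nfkb1*, *Rel*, and *Rela* were not among the genes that passed. *Nfkbia*, which encodes IκBα, was at 202, 172, and 191 CPM in WT against 608, 617, and 699.8 CPM in TNF-Tg cells (log2 fold change 1.87 ± 0.18 (SE), adjusted p = 0.00185, and 1.73 at 8 weeks alone, adjusted p = 8.72e-09). *Nfkbie*, which encodes IκBε, was at 3.78, 3.13, and 4.15 CPM in WT against 74.8, 62.1, and 71.9 CPM in TNF-Tg cells (log2 fold change 4.22 ± 0.33 (SE), adjusted p = 0.000975, and 4.27 at 8 weeks alone, adjusted p = 1.84e-07). *Tnfaip3*, which encodes the deubiquitinase A20, was at 5.67, 18.8, and 6.22 CPM in WT against 74.8, 71.4, and 101 CPM in TNF-Tg cells (log2 fold change 3.20 ± 0.42 (SE), adjusted p = 0.00564, and 3.05 at 8 weeks alone, adjusted p = 6.14e-06). For all 3 the lowest TNF-Tg value was above the highest WT value, and the TNF-Tg libraries lay close to each other. The subunit genes *Nfkb2* and *Relb* rose by 2.67 and 2.04 on the log2 scale (2.25 and 1.90 at 8 weeks alone). The adhesion gene *Vcam1* was at 54.8, 12.5, and 45.6 CPM in WT against 164, 386, and 349.9 CPM in TNF-Tg cells (log2 fold change 3.03 ± 0.49 (SE), adjusted p = 0.00839, and 2.06 at 8 weeks alone, adjusted p = 7.86e-06), and *Icam1*, *Cxcl1*, *Csf1*, *C3*, and *Il1r1* rose as well (log2 fold changes 2.65, 2.97, 2.43, 3.43, and 1.73, and 2.16, 3.62, 2.81, 1.01, and 1.27 at 8 weeks alone). *C3*, complement component 3, was the exception in timing, at 68.6, 381, and 605 CPM in TNF-Tg and not past the threshold at 8 weeks (adjusted p = 0.0862). *Ccl2*, *Cxcl10*, *Nfkbia*, *Nfkbie*, and *Nfkb2* passed with each library left out, and the other 12 reached adjusted p of up to 0.146.

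The promoters of *Cxcl10* and *Nfkbie* are shown because both genes were higher in every TNF-Tg library than in any WT library and both windows hold a κB-type motif, GGGNNTTCC, the sequence family bound by NF-κB. The windows are the 250 bases before the transcription start in RefSeq (build GRCm38.p6), with the motif in capitals, and both the motif and the genes were chosen after seeing the sequences.
*Cxcl10* (chr5:92348890-92349139, minus strand): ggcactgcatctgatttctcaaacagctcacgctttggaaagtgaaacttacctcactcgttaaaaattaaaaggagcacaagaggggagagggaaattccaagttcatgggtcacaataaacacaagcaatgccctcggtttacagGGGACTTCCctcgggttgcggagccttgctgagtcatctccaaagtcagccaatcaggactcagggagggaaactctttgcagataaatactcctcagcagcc
*Nfkbie* (chr17:45555450-45555699, plus strand): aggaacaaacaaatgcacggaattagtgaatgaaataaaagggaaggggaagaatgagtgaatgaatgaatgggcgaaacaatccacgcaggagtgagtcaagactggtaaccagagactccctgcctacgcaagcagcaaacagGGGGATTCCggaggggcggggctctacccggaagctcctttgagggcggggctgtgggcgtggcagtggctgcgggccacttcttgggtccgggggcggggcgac
The motif began 103 bases before the start of *Cxcl10* and 105 bases before that of *Nfkbie*. Searched on both strands as the only motif, it was found in 1635 of 32851 promoter windows of this length (4.98%). Of the 17 risen genes of the list, 13 had a window, and 6 of these held the motif: *Birc2*, *Cxcl10*, *Il1r1*, *Nfkb2*, *Nfkbie*, and *Tnfaip3*. Counted by window, as over all promoters, it was 6 of 18 (33.3%). A match is a description of the letters in the window and not a binding site.

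**Figure D5:**
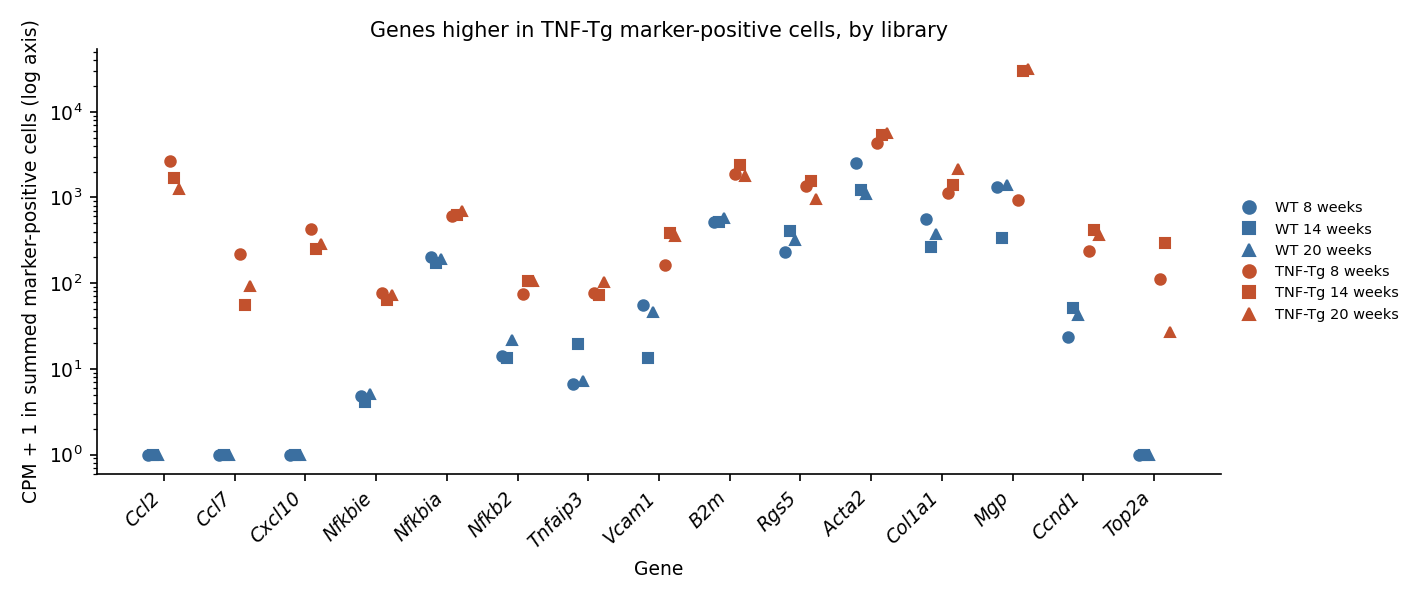
Levels of 15 genes (x axis) in the summed marker-positive cells of each library, as CPM + 1 on a log axis, blue for WT and red for TNF-Tg, with circles, squares, and triangles for 8, 14, and 20 weeks. *Ccl2*, *Ccl7*, *Cxcl10*, and *Top2a* sit at the axis floor (0 CPM) in all WT libraries, and *Mgp* is the 1 gene whose 8-week TNF-Tg value lies within the WT values.

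In the interferon list 27 of 38 genes were tested, 7 rose, 1 fell, and 19 did not pass, with a median of 0.38, and 9 rose and 1 fell of 34 at 8 weeks alone. *B2m*, the light chain of class I molecules, was at 519.7, 516, and 570.5 CPM in WT against 1870.1, 2386, and 1769 CPM in TNF-Tg cells (log2 fold change 2.01 ± 0.19 (SE), adjusted p = 0.0016, and 1.85 at 8 weeks alone, adjusted p = 1.12e-09). *H2-K1*, a class I heavy chain, was at 249, 241, and 247 CPM in WT against 856, 1030.3, and 628 CPM in TNF-Tg cells (log2 fold change 1.87 ± 0.21 (SE), adjusted p = 0.00317, and 1.85 at 8 weeks alone, adjusted p = 1.05e-09). Both passed with each library left out. *Tap2*, a peptide transporter, fell (log2 fold change -0.99, and -0.86 at 8 weeks alone, not past the threshold), and *Irf1* and *Isg15* did not pass. Without the WT library of 20 weeks the other 6 calls were lost (adjusted p up to 0.157). H2 genes are close paralogs, so reads may be split between them. In the TNF receptor death list 14 of 26 genes were tested, 3 rose, and 2 fell by edgeR, whereas DESeq2 gave 1 rise and 0 falls of 25 tested. The median log2 fold change by edgeR was 0.35, and 0.29 at 8 weeks alone. *Ripk3*, the kinase of necroptosis, was low and higher in TNF-Tg, at 3.78, 6.25, and 6.22 CPM in WT against 20.3, 25.6, and 36 CPM in TNF-Tg cells (log2 fold change 2.35 ± 0.46 (SE), adjusted p = 0.0144, and 1.93 at 8 weeks alone, adjusted p = 0.312). *Bax* and *Cycs*, of the mitochondrial death pathway, rose by 0.69 and 1.10 on the log2 scale (0.59 and 0.87 at 8 weeks alone). The survival gene *Bcl2* was at 88.8, 81.3, and 76.8 CPM in WT against 56.1, 31.1, and 29.4 CPM in TNF-Tg cells (log2 fold change -0.99 ± 0.27 (SE), adjusted p = 0.0392, and -0.51 at 8 weeks alone, adjusted p = 0.401), and *Bcl2l1* was at 43.5, 53.1, and 49.8 CPM in WT against 29.6, 18.6, and 16.3 CPM in TNF-Tg cells (log2 fold change -1.06 ± 0.28 (SE), adjusted p = 0.0362, and -0.65 at 8 weeks alone, adjusted p = 0.341). None of the 5 passed without the WT library of 20 weeks (adjusted p up to 0.142).

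*Rgs5*, a regulator of G protein signaling used as a pericyte marker in many tissues, rose in TNF-Tg marker-positive cells while most other pericyte genes were lower. It was at 232, 400.1, and 315 CPM in WT against 1378, 1575, and 961 CPM in TNF-Tg cells (log2 fold change 2.15 ± 0.26 (SE), adjusted p = 0.00394, and 2.19 at 8 weeks alone, adjusted p = 4.16e-11). VSMC barcodes held 60.7, 12.6, and 53.6 CPM in WT against 40.9, 66.9, and 72.6 CPM in TNF-Tg. The TNF-Tg marker-positive cells lay above both the WT marker-positive cells and the VSMC barcodes of their own libraries at each age. Within TNF-Tg, the marker-positive cells with *Higd1b* held 1561, 3183, and 2009 CPM of *Rgs5*, and those admitted by *Trpc6* alone 13.1, 191, and 0 CPM. Marker-positive cells picked at full depth were thinned to 2000 UMIs to count those with a *Rgs5* UMI. The share was 12.5, 7.69, and 9.88% in WT and 54, 33.3, and 30% in TNF-Tg, against 0.679, 0.56, and 0.302% of TNF-Tg endothelial barcodes. In the full comparison the *Rgs5* rise passed with each library left out but the WT library of 20 weeks (adjusted p = 0.054). Within WT, marker-positive cells with all 6 rule genes held 38, 36.5, and 50.8 CPM of *Rgs5*, below the WT mean of all marker-positive cells.

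Of the 15 contractile genes, all of which were tested, 9 rose and 0 fell (edgeR; 1 fell at an unadjusted p under 0.05, and DESeq2 gave 9 rises and 0 falls), with a median of 0.87, and at 8 weeks alone 8 of 15 rose. *Acta2*, smooth muscle α-actin, was at 2521, 1228, and 1109.8 CPM in WT against 4276, 5392, and 5654 CPM in TNF-Tg cells (log2 fold change 1.76 ± 0.35 (SE), adjusted p = 0.0151, and 1.44 at 8 weeks alone, adjusted p = 4.02e-05). *Tagln*, transgelin, was at 2355, 1238, and 1425 CPM in WT against 4094, 3537, and 5839.98 CPM in TNF-Tg cells (log2 fold change 1.53 ± 0.32 (SE), adjusted p = 0.018, and 1.33 at 8 weeks alone, adjusted p = 4.02e-05). *Actg2*, smooth muscle γ-actin, was at 88.8, 21.9, and 29 CPM in WT against 281, 366, and 268 CPM in TNF-Tg cells (log2 fold change 2.74 ± 0.45 (SE), adjusted p = 0.00852, and 2.53 at 8 weeks alone, adjusted p = 2.59e-08). In each case the TNF-Tg marker-positive cells lay between the WT marker-positive cells and the VSMC barcodes, which held 17128, 12523, and 14179 CPM of *Acta2* in WT against 13834, 11288, and 9659 CPM in TNF-Tg. The 9 VSMC markers outside the rule summed to 3413 to 6796 CPM in WT and 9626 to 13102 CPM in TNF-Tg marker-positive cells and to 24696 to 35202 CPM in WT and 21708 to 28566 CPM in TNF-Tg VSMC barcodes. The TNF-Tg marker-positive cells were deeper and held fewer rule genes, and the part of this in the contractile rise was not tested. None of the 9 calls held without the WT library of 14 weeks or of 20 weeks (adjusted p up to 0.139).

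Genes of collagens and other matrix proteins rose in TNF-Tg marker-positive cells. Of 35 listed genes, 32 were tested, 12 rose, and 1 fell, with a median of 0.50, and 14 rose and 4 fell of 34 at 8 weeks alone. *Col1a1*, of type I collagen, was at 556, 263, and 371 CPM in WT against 1129.8, 1402, and 2125 CPM in TNF-Tg cells (log2 fold change 2.07 ± 0.35 (SE), adjusted p = 0.0103, and 1.54 at 8 weeks alone, adjusted p = 2.21e-06). *Col6a3*, of type VI collagen, was at 185, 131, and 195 CPM in WT against 564, 942, and 932 CPM in TNF-Tg cells (log2 fold change 2.35 ± 0.28 (SE), adjusted p = 0.00394, and 1.75 at 8 weeks alone, adjusted p = 1.51e-08). Both were higher in each TNF-Tg than in any WT library. *Fn1*, fibronectin, was at 115, 21.9, and 41.5 CPM in WT against 175, 1369.6, and 2282 CPM in TNF-Tg cells (log2 fold change 4.49 ± 0.95 (SE), adjusted p = 0.0184, and 1.49 at 8 weeks alone, adjusted p = 0.00196). *Timp1*, an inhibitor of metalloproteinases, was at 24.6, 6.25, and 4.15 CPM in WT against 43.6, 391, and 2773 CPM in TNF-Tg cells (log2 fold change 6.54 ± 1.53 (SE), adjusted p = 0.0249, and 1.82 at 8 weeks alone, adjusted p = 0.0329), with the 20-week library far above the others. *Timp3*, the inhibitor held in the matrix, was at 2349, 1672, and 1247 CPM in WT against 330.4, 164, and 497 CPM in TNF-Tg cells (log2 fold change -2.32 ± 0.42 (SE), adjusted p = 0.0121, and -2.37 at 8 weeks alone, adjusted p = 2.59e-08). *Mgp*, matrix Gla protein, was at 1323, 331, and 1415 CPM in WT against 927, 29828, and 31959.7 CPM in TNF-Tg cells (log2 fold change 4.48 ± 1.15 (SE), adjusted p = 0.0328, and -0.11 at 8 weeks alone, adjusted p = 0.897). The TNF-Tg values above WT were those of 14 and 20 weeks. VSMC barcodes held 3609.6, 8854, and 9769.8 CPM of *Mgp* in WT against 10289.9, 25691, and 30626 CPM in TNF-Tg. The basement membrane collagen genes *Col4a1* and *Col4a2* overlapped between the groups (adjusted p = 0.543 and 0.886). *Igfbp7*, a growth factor–binding protein of the vessel wall, was at 1459, 706, and 1079 CPM in WT against 5309, 17710.5, and 13233 CPM in TNF-Tg cells (log2 fold change 3.59 ± 0.50 (SE), adjusted p = 0.00564, and 2.33 at 8 weeks alone, adjusted p = 4.36e-11). Of 21 integrin and adhesion genes, 16 were tested, *Itga7*, *Vcam1*, and *Icam1* rose, and 0 fell (edgeR; 1 fell at an unadjusted p under 0.05, and DESeq2 gave 5 rises and 0 falls), with a median of 0.23, and 4 rose and 1 fell of 16 at 8 weeks alone. The integrin *Itga2* was too low to be tested, with 2 UMIs in WT and 95 in TNF-Tg, a ratio of 28.3 (95% exact interval 7.62 to 237) for counting error only. *Col6a3* kept its call with each library left out, and the other 12 matrix genes reached adjusted p of up to 0.155.

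Several genes of cell division were at or near 0 in WT cells, whereas the summed 16 genes of the cell cycle list, D-type cyclins included, were at 1019 to 1228 CPM in WT and 1458 to 2825 CPM in TNF-Tg. Of the 16 genes, 11 were tested, 10 rose, and 0 fell (edgeR; 1 fell at an unadjusted p under 0.05, and DESeq2 gave 12 rises and 1 fall), with a median of 3.49. *Top2a*, *Cdk1*, and *Birc5* had 0 UMIs and *Mki67* 1 UMI in WT. These genes passed the low-count filter only through TNF-Tg and could not be called lower, so the count and the median are a description for them. At 8 weeks alone 9 rose and 1 fell of 13. *Top2a*, the DNA topoisomerase of dividing cells, had 0 UMIs in WT and reached 111, 291, and 26.2 CPM in TNF-Tg marker-positive cells of 8, 14, and 20 weeks, at least 90.1-fold higher against 3 UMIs over the WT marker-positive cells. *Cdk1*, the kinase that drives entry into mitosis, had 0 UMIs in WT and reached 57.7, 161, and 22.9 CPM, at least 50-fold higher. *Mki67* had 1 UMI in WT and 476 in TNF-Tg, a ratio of 283 (95% exact interval 50.6 to 11218). Marker-positive cells with 3 or more of 7 proliferation genes were 0 of 249 in WT, which allows a share of up to 1.2%, and 3 of 50, 14 of 60, and 1 of 20 in TNF-Tg of 8, 14, and 20 weeks. When the TNF-Tg cells picked at full depth were thinned to 2000 UMIs, 1 of 50, 10 of 60, and 0 of 20 held 3 or more. The cells with 3 or more of these genes at full depth held 12.9%, 39.2%, and 13.9% of the UMIs of the TNF-Tg marker-positive cells. Their median was 33636.5 UMIs at 14 weeks. The share of such cells in VSMC barcodes was 2.72%, 2.03%, and 0.41% in TNF-Tg and in endothelial barcodes 5.04%, 4.18%, and 3.73%. D-type cyclins, which drive entry into division, rose too. *Ccnd1* was at 22.7, 50, and 41.5 CPM in WT against 235, 418, and 366 CPM in TNF-Tg cells (log2 fold change 3.30 ± 0.35 (SE), adjusted p = 0.0027, and 2.73 at 8 weeks alone, adjusted p = 9.9e-10), and *Ccnd2* was at 202, 216, and 216 CPM in WT against 553, 526, and 507 CPM in TNF-Tg cells (log2 fold change 1.42 ± 0.16 (SE), adjusted p = 0.00317, and 1.44 at 8 weeks alone, adjusted p = 6.13e-07). The cell cycle inhibitor *Cdkn1a* was at 5.67, 9.38, and 16.6 CPM in WT against 26.5, 332, and 137 CPM in TNF-Tg cells (log2 fold change 4.10 ± 0.94 (SE), adjusted p = 0.0236, and 1.36 at 8 weeks alone, adjusted p = 0.298). *Tyms*, *Ccnd1*, and *Ccnd2* passed with each library left out, and the other 7 reached adjusted p of up to 0.104. Leaving out the cells that held 3 or more proliferation genes, which was decided once the data had been seen, 452 genes were higher and 347 lower in TNF-Tg of 6462.

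Of the 12 genes most raised by size, 7 belonged to cell division or histones. Besides *Ccl2*, *Cxcl10*, *Ccl7*, *Top2a*, *Cdk1*, and *Birc5*, they were the histone genes *Hist1h1b*, *Hist1h2ae*, and *Hist1h2ap*, the kinetochore gene *Spc24*, *Rgs16*, a relative of *Rgs5*, and *Sorbs2*, a cytoskeletal adaptor. *Hist1h1b* was at 0 in WT against 175, 226, and 157 CPM in TNF-Tg, at least 89.5-fold higher. *Rgs16* was at 0 in WT against 51.4, 124, and 52.3 CPM in TNF-Tg, at least 41.5-fold higher. Histone genes of a cluster are near copies, so their reads may be split between them.

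Of 21 genes of oxidative phosphorylation and its hypoxia-type isoforms, 12 were tested, 6 rose, and 1 fell. At 8 weeks alone 2 of 14 rose. Summed without the rule genes, the list was at 4007 to 4250.4 CPM in WT and 3934 to 4253 CPM in TNF-Tg, with overlapping groups. *Ndufa4*, the general partner of *Ndufa4l2*, was at 85, 40.6, and 53.9 CPM in WT against 137, 415, and 526 CPM in TNF-Tg cells (log2 fold change 2.66 ± 0.52 (SE), adjusted p = 0.0146, and 1.19 at 8 weeks alone, adjusted p = 0.00653), and *Ndufa4l2* was at 1395, 1563, and 1655 CPM in WT against 1367, 606, and 608 CPM in TNF-Tg cells (adjusted p = 0.113). *Cox4i1*, the general counterpart of *Cox4i2*, rose by 0.67 on the log2 scale, and *Higd1a* by 0.78 (0.59 and 0.57 at 8 weeks alone, not past the threshold). *Pgk1*, of glycolysis, was the other gene that rose. VSMC barcodes held 563, 449.9, and 520.2 CPM of *Ndufa4* in WT. *Epas1*, which encodes HIF-2α, was at 1111, 1247, and 1162 CPM in WT against 790.1, 619, and 579 CPM in TNF-Tg cells (log2 fold change -0.73 ± 0.17 (SE), adjusted p = 0.025, and -0.52 at 8 weeks alone, adjusted p = 0.146), whereas *Hif1a* was at 71.8, 50, and 62.2 CPM in WT against 106, 156, and 94.8 CPM in TNF-Tg cells (log2 fold change 1.06 ± 0.26 (SE), adjusted p = 0.0283, and 0.81 at 8 weeks alone, adjusted p = 0.0871). *Ldha*, lactate dehydrogenase, was at 75.6, 103, and 87.1 CPM in WT against 201, 409, and 291 CPM in TNF-Tg cells (log2 fold change 1.88 ± 0.30 (SE), adjusted p = 0.00806, and 1.25 at 8 weeks alone, adjusted p = 0.000473). None of the 7 held without the WT library of 14 weeks or of 20 weeks (adjusted p up to 0.121). Of 17 early-response genes, which tissue digestion can raise, 15 were tested, 1 rose (*Junb*), and 3 fell (*Jun*, *Jund*, and *Ier3*), and at 8 weeks alone 1 rose and 1 fell of 16. *Runx1*, a transcription factor named in the study, had overlapping groups, at 26.5, 12.5, and 29 CPM in WT against 23.4, 102, and 75.2 CPM in TNF-Tg cells (adjusted p = 0.0777).

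Whether the genotype difference in marker-positive cells differed from that in VSMC barcodes of the same libraries was tested with an interaction term (edgeR, library as a block). Of 7855 genes 341 passed (4.34%), 216 with a higher and 125 with a lower difference in marker-positive cells. Without the TNF-Tg libraries of 14 and 20 weeks, an alternative chosen after seeing the data, 103 of 8481 passed, 51 with a higher and 52 with a lower difference. With 1 library left out the count ranged from 1, without the WT library of 20 weeks, to 1193, without the TNF-Tg library of 8 weeks. Among genes with at least 50 CPM in a group, *Spp1* had the largest negative difference (-10.11 ± 1.10 (SE), adjusted p = 0.00285, and -4.35 at 8 weeks alone, adjusted p = 0.981). It was lower in TNF-Tg marker-positive cells and, at 20 weeks, higher in TNF-Tg VSMC barcodes. The 12 immune markers summed to 249 CPM in those VSMC barcodes and to at most 37.1 CPM in the VSMC barcodes of any other library. The part of this in the *Spp1* difference was not tested. *Postn* was lower in TNF-Tg marker-positive cells of 14 and 20 weeks, at 3194, 2619, and 3539 CPM in WT against 2881, 624, and 752 CPM in TNF-Tg cells, and higher in TNF-Tg VSMC barcodes, at 419.9, 289, and 438 CPM in WT against 1883, 1721, and 1450.4 CPM in TNF-Tg (difference -3.51 ± 0.42 (SE), adjusted p = 0.00548, and -2.39 at 8 weeks alone, adjusted p = 1.23e-07). Of 15 contractile genes 7 had a higher difference in marker-positive cells (5 at 8 weeks alone), *Acta2* among them (2.21 ± 0.33 (SE), adjusted p = 0.00972, and 1.59 at 8 weeks alone, adjusted p = 0.000853), with a lower mean in TNF-Tg than in WT VSMC barcodes. *Tgfbr3* (-2.33 ± 0.34 (SE), adjusted p = 0.00972, and -1.79 at 8 weeks alone, adjusted p = 0.021) and *Acvr2a* (-1.97 ± 0.40 (SE), adjusted p = 0.023, and -1.80 at 8 weeks alone, adjusted p = 0.19) had a lower difference in marker-positive cells. In the TNF and NF-κB list *Csf1* and *Il1r1* passed of 26 tested, both higher in marker-positive cells, and at 8 weeks alone 1 had a higher and 1 a lower difference of 25. A gene that missed the threshold was not shown to respond alike in both sets of barcodes. The TNF-Tg marker-positive cells of 14 and 20 weeks went against the pericyte label, so the genotypes may differ in which cells the rule admitted. The part of this in the interaction differences was not tested.

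Summed over whole libraries, where no pericyte has to be defined, more of the other pericyte genes passed the threshold as lower than as higher in TNF-Tg. A lower level here may be fewer pericytes, less RNA per pericyte, or a change in other cells that hold the gene, which cannot be told apart. Of WT endothelial barcodes, 92.4, 92.4, and 93.5% held *Itga1* and 31.5, 38.4, and 32.2% held *Pdzd2* at 8, 14, and 20 weeks. The part of endothelial cells in the falls was not tested. Over all kept barcodes 2315 genes were higher (14.3%) and 1886 lower (11.6%) of 16222 tested (edgeR), and of the 28 other pericyte genes 4 were higher and 10 lower. The 4 rises are a share near the 14.3% of all genes. The list as a whole did not fall: 14 of the 28 had a log2 fold change above 0 and 14 below 0. Their median was 0.015, against 0.009 for all genes. *Lipg*, a rule gene given as a description, was at 19.1, 16.9, and 15.2 CPM in WT against 1.65, 0.521, and 0.84 CPM in TNF-Tg libraries of 8, 14, and 20 weeks. *Higd1b* was at 30, 20.7, and 24.9 CPM in WT against 15.9, 7.73, and 1.07 CPM in TNF-Tg. Both were lower in each TNF-Tg than in any WT library. *Vtn* was at 9.5, 6.42, and 7.99 CPM in WT libraries against 3.29, 1.44, and 0.812 CPM in those of TNF-Tg mice (log2 fold change -2.09 ± 0.51 (SE), adjusted p = 0.0292). *Plxdc1*, which encodes a membrane protein of vessels, was at 4.87, 5.42, and 8.17 CPM in WT libraries against 1.53, 1.09, and 1.37 CPM in those of TNF-Tg mice (log2 fold change -2.19 ± 0.27 (SE), adjusted p = 0.00431). *Gucy1b1* was at 55.3, 43.1, and 52.8 CPM in WT libraries against 24.1, 29.1, and 15.7 CPM in those of TNF-Tg mice (log2 fold change -1.12 ± 0.23 (SE), adjusted p = 0.0169). The potassium channel genes *Abcc9* and *Kcnj8*, which together form a channel of mural cells, also fell, as did *Pde5a*, *Gucy1a1*, *Itga1*, *Tbx5*, and *Pdzd2* (log2 fold changes -0.78, -0.68, -1.48, -0.66, -1.25, -1.15, and -0.97). *Postn*, *Cspg4*, *Itga7*, and *Ebf1*, which VSMC barcodes also held, rose (log2 fold changes 1.39, 2.03, 1.95, and 1.20). *Notch3* and *Rgs5* did not pass (log2 fold changes 0.20 and 0.64), and *Pdgfrb* was at 52.3, 34.3, and 36 CPM in WT against 30.9, 52.2, and 40.2 CPM in TNF-Tg.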

How the data were processed

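Single-cell RNA counts of 6 lung libraries (3 WT, 3 TNF-Tg) were analyzed. The authors sorted live CD45−CD326− cells and deposited raw UMI counts per gene and barcode, made with Cell Ranger (5.0.0 per the labels; the file headers give 5.0.0 for 8 weeks and 6.0.1 for 14 and 20 weeks) on GRCm38/mm10. The members and gene lists were chosen with earlier results of these data known. Libraries held 33680696 to 72655387 UMIs. Each library is 1 pool of mice, so p-values measure only the spread between these libraries.

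Raw counts were summed over marker-positive cells, VSMC barcodes, or all kept barcodes of a library and tested with edgeR 4.0.16 (R 4.3.3; TMM normalization, filterByExpr, quasi-likelihood test, Benjamini-Hochberg adjusted p under 0.05), after checks on simulated data. Shares were compared with an exact permutation test (scipy 1.17.1). Alternatives were DESeq2 1.42.0, RLE size factors, no low-count filter, thinning, other cell and marker rules, the highest Scrublet scores removed (scanpy 1.11.5), age as a block, and each library left out. Barcodes with high doublet scores were otherwise kept. The study had removed doublets by scatter at sorting, a step before capture that does not cover doublets formed later. Intervals cover counting error only. Named genes were list genes that passed or that the study names, the 12 with the largest change per direction (at least 50 CPM in the higher genotype, same direction at every age), whole-library pericyte genes, and the 5 largest interaction differences per direction. Leading WT genes were the 25 with the largest ratio over other barcodes (at least 100 CPM), chosen after their values were seen, as were the κB motif and the genes shown with it. Some list genes are not reported here.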

Additional observations from a re-analysis of the deposited data

Results flagged for a closer look

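These genes were picked out because the TNF-Tg difference in marker-positive cells differed from that in VSMC barcodes of the same libraries by an interaction term (edgeR, adjusted over 7855 genes). The values are log2 differences of the 2 changes. On the negative side were *Spp1* with -10.11, *Kcnq5* with -5.46, *Rgcc* with -5.32, *Rapgef4*, a cyclic AMP sensor, with -4.30, and *Ifit3*, an interferon-induced gene, with -4.11. In marker-positive cells, each of these was lower in every TNF-Tg than in any WT library, and WT VSMC barcodes held at most 6.29 CPM of any of them. *Ifit3* had its highest VSMC level in the TNF-Tg library of 20 weeks.

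On the positive side were *Sorbs2* with 9.40, the ATP receptor gene *P2rx1* with 8.20, *Timp4* with 7.86, *Pln*, which encodes phospholamban, with 7.39, and the cytoskeletal gene *Pdlim4* with 6.07. *Sorbs2*, *P2rx1*, and *Timp4* had 0 UMIs in all WT marker-positive cells, so their fitted sizes depend on the prior count and are no bound. *P2rx1* and *Timp4* stayed low in TNF-Tg marker-positive cells, at up to 13.1 and 7.79 CPM, and were lower in TNF-Tg than in WT VSMC barcodes as a group mean. Of all 7855 genes 15, 6, and 1 passed without the WT library of 8, 14, and 20 weeks, so these calls rest on having all 3 WT libraries. Without the TNF-Tg libraries of 14 and 20 weeks, *Kcnq5*, *Ifit3*, *Sorbs2*, *P2rx1*, *Timp4*, and *Pln* still passed, while *Spp1*, *Rgcc*, *Rapgef4*, and *Pdlim4* did not (adjusted p = 0.981, 0.145, 0.184, and 0.377).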

How the results depend on the processing

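The share of marker-positive cells was lower in TNF-Tg under every alternative run and with each library left out, with differences of -0.745 to -0.387 percentage points of kept, -7.42 to -3.25 of mesenchymal, and -52.9 to -44.0 of mural barcodes when 1 library was left out (exact permutation p = 0.2, the smallest possible then). Genes that passed in marker-positive cells numbered 1103 in the main analysis, 122 of 2614 with barcodes thinned to 2000 UMIs, 654 with 4 or more of the 6 genes, 710 with *Higd1b* required, 551 with no endothelial gene, 1858 with no filter on low counts, and 47 to 2255 with 1 library left out. Whole libraries gave 1395 to 5801 and the comparison with VSMC barcodes 1 to 1193 with 1 library left out, and 884 of the latter passed with no filter on low counts and 103 without the TNF-Tg libraries of 14 and 20 weeks. The cause of these differences was not tested. *Mgp* was the 1 named gene that changed direction, with a log2 fold change of -0.11 without the TNF-Tg libraries of 14 and 20 weeks (adjusted p = 0.897). Marker-positive cells with no VSMC gene were too few for a fit.

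Ages pair the libraries only as labels. Deviations of same-age libraries from their group means correlated at -0.06, -0.01, and -0.05 over 6497 genes in marker-positive cells. With age as a replicate block, 632 genes passed in them and 2758 in whole libraries, and the sign-flip p of the shares was 0.25, the smallest possible. Few marker-positive cells, 20 in the TNF-Tg library of 20 weeks, limit all values of that age.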
